A study of Mus musculus with 5 samples.

Results

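The 10 genes described here encode the ligands and receptors of 2 linked fibrosis pathways: the transforming growth factor beta ligands Tgfb1, Tgfb2 and Tgfb3 with their receptors Tgfbr1 and Tgfbr2, the platelet-derived growth factor chains Pdgfa and Pdgfb with the receptors Pdgfra and Pdgfrb, and the matricellular protein gene Ccn2. They were taken by symbol from the 32285 genes counted in every library, and all 10 were found. The question was which kidney cell types carried each ligand and each receptor, and how these levels differed between control kidneys, acute injury (AKI) and chronic disease (CKD).

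All animals were wild-type males of the C57BL/6 strain, between 8 and 10 weeks old. AKI mice received aristolochic acid I (AAI), a plant toxin taken up by the proximal tubule, by intraperitoneal injection at 3 mg/kg every 3 days and were sampled at week 2. CKD mice had the same course of AAI, then 2 weeks without the toxin, and were sampled at week 4, whereas the control received vehicle and was sampled at week 0. Dissociated cells were sequenced in droplets, with 1 library for the control and 2 each for AKI and CKD, and a series of 5 values always runs in the order control, AKI 1, AKI 2, CKD 1, CKD 2. The labels do not say whether a library pooled animals, so p-values measure only the spread between these libraries. No reporter or deletion was involved, and recovery after dissociation sets how many cells of each type were seen.

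TGF-beta ligands are secreted in a latent form that is held in the matrix until it is activated, and then signal through a complex of the type II receptor Tgfbr2 and the type I receptor Tgfbr1, which phosphorylates SMAD2 and SMAD3. PDGF chains form dimers that signal through the receptor tyrosine kinases Pdgfra and Pdgfrb, which in the kidney are known as markers of fibroblasts, pericytes and mesangial cells. Ccn2, formerly called connective tissue growth factor, is a known target of both TGF-beta and YAP signalling. In kidney fibrosis, injured tubules, macrophages and endothelium are known sources of these ligands and stromal cells are their best known targets.

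RefSeq start sites on the mouse build GRCm38.p6 matched 6 of the 10 members, while Ccn2, Tgfb3, Pdgfb and Pdgfrb had no entry. The 250 bases upstream of the start are shown, 5′ to 3′ on the strand of the gene, for the 4 members of those 6 that had a difference between CKD and AKI that passed the test below. Capitals mark matches, on either strand, to any of 6 short motifs. For binding by SMAD proteins the letters searched were CAGACA, and for the AP-1 factors of the Fos and Jun families they were TGANTCA. The motif of the TEAD partners of YAP was searched as GGAATG, and the E-box read by basic helix-loop-helix factors as CACGTG. For the GC box of Sp1-type factors the letters were GGGCGG, and for the TATA box, which places the start of transcription, TATAAA. Tgfb2, chr1:186705990-186706239, minus strand, lies inside the Tgfb2 locus (chr1:186622787-186709697). Pdgfa, chr5:138994945-138995194, minus strand, lies inside the Pdgfa locus (chr5:138976014-139000792). Tgfbr1, chr4:47352972-47353221, plus strand, and Tgfbr2, chr9:116175364-116175613, minus strand, border their loci directly (chr4:47353222-47414926 and chr9:116087695-116175363).
Tgfb2: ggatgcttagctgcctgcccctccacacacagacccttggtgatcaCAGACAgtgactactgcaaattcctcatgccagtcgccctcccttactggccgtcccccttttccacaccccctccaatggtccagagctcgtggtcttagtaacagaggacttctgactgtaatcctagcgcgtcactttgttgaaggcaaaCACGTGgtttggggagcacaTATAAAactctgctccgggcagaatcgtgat
Pdgfa: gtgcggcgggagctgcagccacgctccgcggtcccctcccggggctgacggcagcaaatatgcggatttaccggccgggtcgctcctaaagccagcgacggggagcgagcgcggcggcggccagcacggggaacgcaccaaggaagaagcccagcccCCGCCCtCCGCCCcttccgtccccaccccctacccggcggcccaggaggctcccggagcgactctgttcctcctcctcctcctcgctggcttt
Tgfbr1: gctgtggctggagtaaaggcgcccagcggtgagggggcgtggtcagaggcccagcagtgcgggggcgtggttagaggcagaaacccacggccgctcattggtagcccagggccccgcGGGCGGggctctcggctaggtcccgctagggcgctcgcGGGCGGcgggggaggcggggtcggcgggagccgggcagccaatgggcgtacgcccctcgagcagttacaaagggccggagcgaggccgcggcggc
Tgfbr2: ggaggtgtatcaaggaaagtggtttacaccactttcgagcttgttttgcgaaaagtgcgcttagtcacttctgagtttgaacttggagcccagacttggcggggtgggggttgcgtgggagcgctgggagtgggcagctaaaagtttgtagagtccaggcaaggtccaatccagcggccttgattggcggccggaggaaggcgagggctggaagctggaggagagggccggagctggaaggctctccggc
The Tgfb2 window held a SMAD match starting at base -204 from the start site, an E-box at -51 and a TATA box at -31. The Pdgfa window held GC boxes at -93 and -86, the Tgfbr1 window GC boxes at -133 and -95, and the Tgfbr2 window none of the 6 motifs. The table holds another start for Tgfbr1 (window chr4:47385966-47386215) with a SMAD match at -203, and another for Pdgfa (window chr5:138994282-138994531) with a GC box at -60. Across the 32851 windows of the same length in the RefSeq table, 17.1% held the SMAD motif, 6.75% AP-1, 12.6% TEAD, 6.02% the E-box, 32.7% the GC box and 12.4% the TATA box, so each is frequent by its letters alone. A match describes the sequence and not the binding of a factor. The other loci were Tgfb1 at chr7:25687002-25705077, Tgfb3 at chr12:86056743-86079041, Pdgfb at chr15:79995865-80024614, Pdgfra at chr5:75151322-75198206 and Ccn2 at chr10:24595442-24598683.

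Of the deposited barcodes, 53619 cells were kept (8397 in the control and 8783 to 16330 in the others), and each library kept 55092588 to 80467902 UMIs, the identifiers that count single RNA molecules. In the control 38.7% of barcodes exceeded the limit of 30% mitochondrial UMIs, against 11.1 to 12.7% elsewhere. The control shared 132 cell barcodes with CKD 2, and 99 control cells whose CKD 2 counterpart held over 20 times their UMIs were removed. Cells formed 44 clusters without the use of the members, and clusters were called by marker genes, with "-like" after the type. Levels are UMIs of the gene per 10000 UMIs of the class, given for classes with at least 20 cells in a library. Classes that scored for a type without leading genes of that type are called by their first gene: Cldn5-led (endothelial score) and Ccl6-led (macrophage score). The class with the podocyte score had the podocyte markers Cdkn1c and Wt1 among its leading genes. It is also called by its first gene, as Ncam1-led. In the Ncam1-led cells the podocyte markers summed to 4.27, 28.5, 7.78 and 12.1 UMIs per 10000 in the first 4 libraries and proximal tubule markers to 25.5, 2.98, 6.40 and 9.09, so their label as podocytes was weak. In fibroblast-like cells the fibroblast markers summed to 248, 95.5, 56.8, 41.8 and 209, and CKD 1 also held the most T cell (16.8), macrophage (12.0) and proximal tubule (11.8) markers there, so fold changes in fibroblast-like cells are given with and without CKD 1.

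Seen over whole libraries, Tgfb1 was higher in every injured library than in the control, and Ccn2, Tgfbr1, Pdgfra, Pdgfrb, Tgfb2 and Tgfb3 were lower in every one. Tgfb1 stood at 0.429 in the control against 1.11, 1.21, 0.927 and 1.29. Ccn2 stood at 0.547 against 0.508, 0.313, 0.164 and 0.134, and Tgfbr1 at 0.501 against 0.282, 0.314, 0.272 and 0.256. These sums depend on which cells were captured as well as on the level in each cell type, and T-like cells made up 13.9% of kept control cells and 57.8%, 57.7%, 31.3% and 63.1% in the injured libraries. With 1 control library, no comparison with the control has a replicate check, and intervals in the plots cover counting error only.

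**Figure D1:**
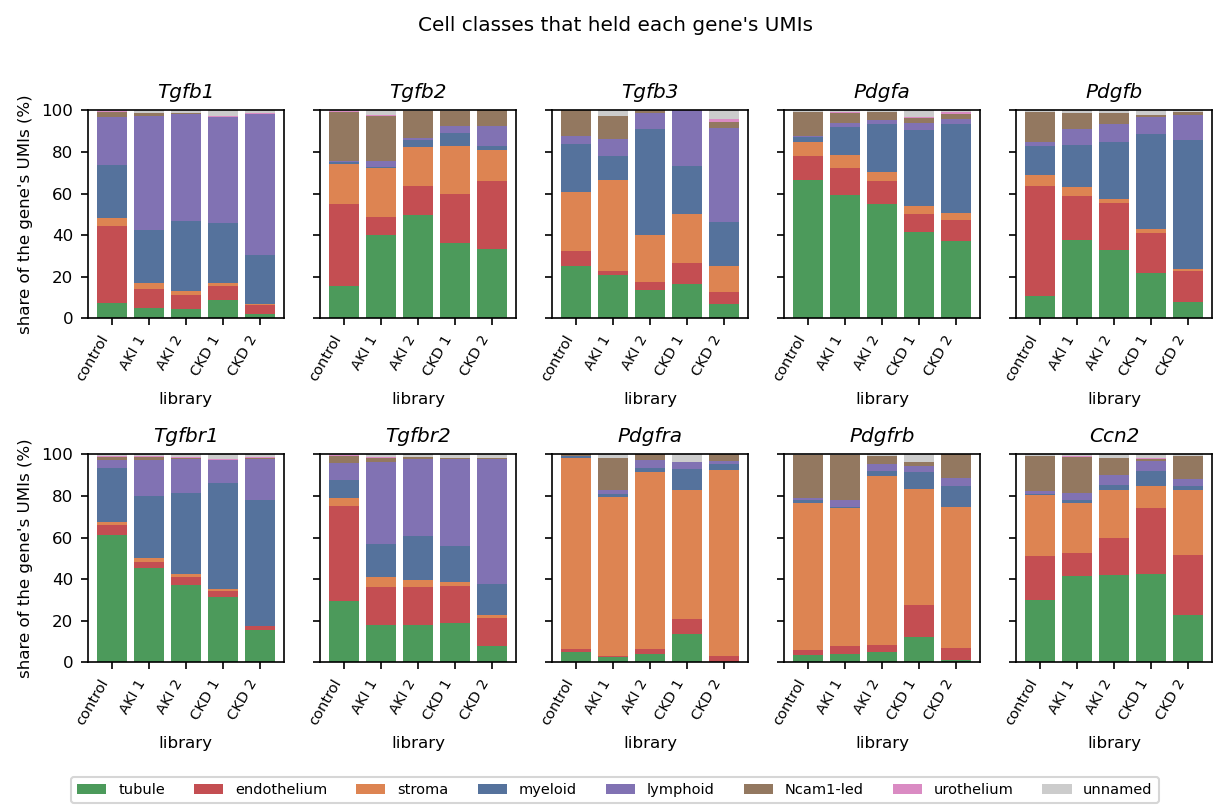
Each bar is 1 library and shows how the UMIs of a gene in all kept cells divide between groups of cell classes, in percent, with 1 panel per gene. The share of Tgfb1 in lymphoid cells was 23.0% in the control and 51.3% to 68.0% in AKI and CKD, and the Pdgfra and Pdgfrb bars are mostly stromal in every library.

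The cell types that held each gene's UMIs also differed between libraries. The endothelium held 37.3% of Tgfb1 UMIs in the control and 4.4% to 8.9% in the injured libraries. Pdgfb came mostly from the endothelium in the control (52.8%), whereas the tubule held 37.7% and 32.8% in AKI and myeloid cells held 45.6% and 61.9% in CKD. For Pdgfa, the tubular share was 66.4%, 59.3%, 55.2%, 41.4% and 37.1%, and the myeloid share 2.5%, 13.1%, 22.7%, 36.3% and 42.7%. Stromal cells held 62.1% to 91.8% of Pdgfra UMIs and 55.7% to 81.1% of Pdgfrb UMIs. These shares rest on the captured cells and on the level in each cell type together.

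**Figure D2:**
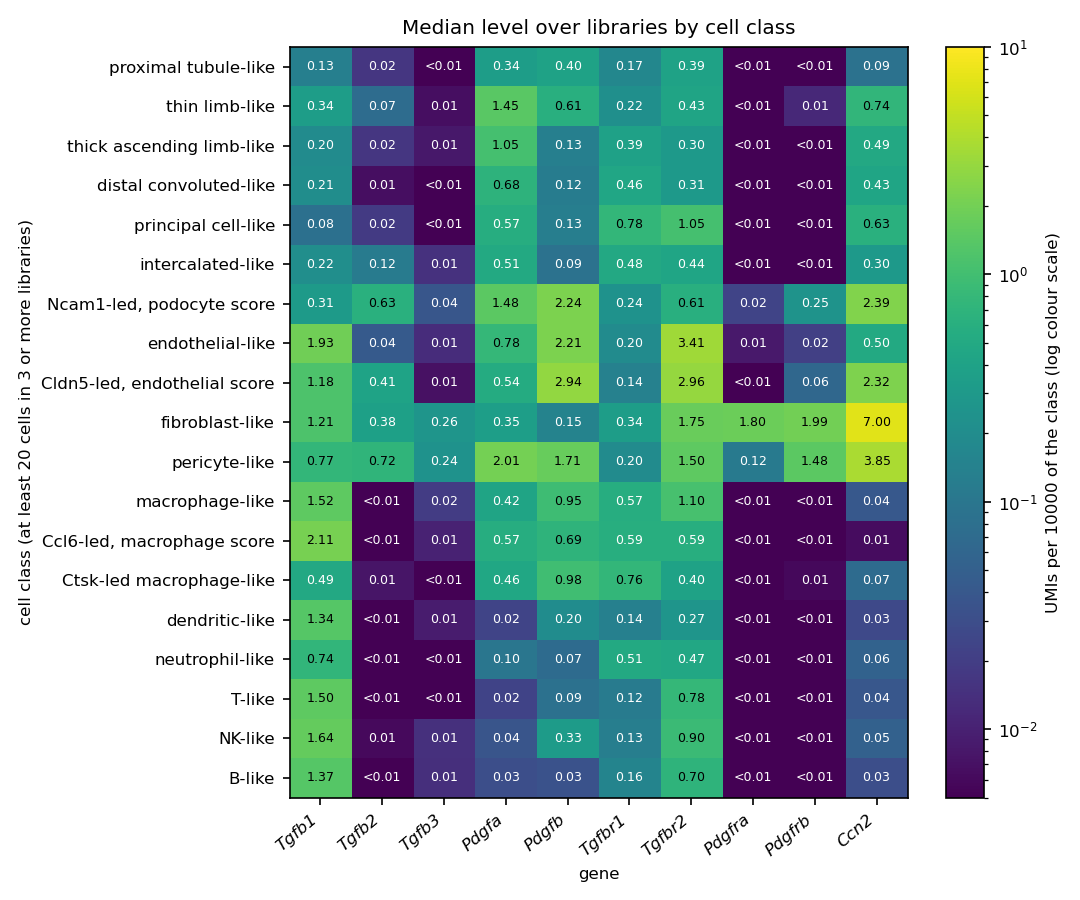
Rows are cell classes with at least 20 cells in 3 or more libraries, columns are the 10 genes, and the colour is the median over libraries of UMIs per 10000 on a log colour scale. Pdgfra stands out in fibroblast-like cells (1.8) with all other classes at 0.115 or lower, whereas Tgfb1 and Tgfbr2 are spread over immune and endothelial classes.

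Among the ligands, Tgfb1, the most widely made TGF-beta isoform, had its highest median in Ccl6-led cells (2.11, lowest 1.95 and highest 2.82). Endothelial-like (1.93), NK-like (1.64), macrophage-like (1.52) and T-like cells (1.5) came next, and the ranges of neighbours in this order overlapped. Tgfb2, an isoform known from stroma and epithelium, was highest in pericyte-like cells (0.72, range 0.607 to 1.27), followed by Ncam1-led cells (0.628), Cldn5-led cells (0.408) and fibroblast-like cells (0.381), again with overlapping ranges. Tgfb3 was found in fibroblast-like (median 0.262) and pericyte-like cells (0.244), and no other class reached the lowest pericyte-like value of 0.131. The whole of Tgfb3 rests on few UMIs, since fibroblast-like cells held 11, 27, 14, 0 and 2 of them.

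Pdgfa, the chain that pairs mainly with Pdgfra, was highest in pericyte-like cells (2.01), then in Ncam1-led cells (1.48), thin limb-like cells (1.45) and thick ascending limb-like cells (1.05), with overlapping ranges. Pdgfb, the chain by which endothelium is known to recruit pericytes, was highest in Cldn5-led cells (2.94, range 1.62 to 3.24), Ncam1-led cells (2.24) and endothelial-like cells (2.21, range 1.49 to 2.29). Ctsk-led macrophage-like cells, a class with 995 cells in CKD 1, 247 in CKD 2 and at most 49 in any other library, held Pdgfb at 0.983 (AKI 1), 0.878 (CKD 1) and 1.40 (CKD 2). Tgfb1 there was 0.0655 (1 UMI), 0.517 and 0.492, below every other macrophage-like value of Tgfb1 (1.30 to 1.77).

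Among the receptors, Pdgfra and Pdgfrb were mostly stromal. Pdgfra was highest in fibroblast-like cells (1.8, range 0.391 to 3.60), and the next class, pericyte-like cells, did not overlap (0.115, up to 0.242). In T-like cells, which are not known to make it, Pdgfra gave 0, 2, 5, 1 and 1 UMIs. Pdgfrb was shared by fibroblast-like (1.99, range 0.414 to 3.86) and pericyte-like cells (1.48, range 0.919 to 1.84). Ncam1-led cells held it at 0.363 (control), 0.545 (AKI 1), 0.128 (AKI 2) and 0.1 (CKD 1), the highest of which lay above the lowest fibroblast-like value. They held 20.3% of Pdgfrb UMIs in the control and 21.9% in AKI 1, and 15.6% of Pdgfra UMIs in AKI 1 (19 UMIs).

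Tgfbr2 was highest in endothelial-like cells (3.41, range 2.64 to 4.11) and Cldn5-led cells (2.96, range 2.01 to 3.26), then in fibroblast-like (1.75) and pericyte-like cells (1.5). By its median over libraries, Tgfbr1 was highest in principal cell-like cells of the collecting duct (0.776, range 0.648 to 0.913), with Ctsk-led macrophage-like (0.764), Ccl6-led (0.585) and macrophage-like cells (0.568) overlapping them, and in the control macrophage-like cells were above principal cell-like cells (2.59 against 0.875). Ccn2 was highest in fibroblast-like cells (7.0, range 1.88 to 12.2) and pericyte-like cells (3.85, range 0.836 to 4.82), followed by Ncam1-led (2.39) and Cldn5-led cells (2.32, range 1.39 to 3.28). The next class, thin limb-like cells (0.743), did not overlap the Cldn5-led cells.

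Over 96 sums of a class in a library, the 3 genes most like each member were named by Pearson's r of log2 levels, as a description that shares libraries and depth across points. For Pdgfra these were Col3a1 (r = 0.973), Col6a3 (0.97) and Cygb (0.969), and for Pdgfrb Des (0.957), Fxyd1 (0.953) and Gucy1b1 (0.928). For Ccn2 they were Fstl1 (0.894), Serpinh1 (0.891) and Cavin1 (0.889), and for Tgfb2 Afap1l2 (0.91), Mylk (0.847) and Thsd7a (0.843). Tgfb1 was closest to Ifi203 (0.899), Sp110 (0.898) and Ppp1r18 (0.874), and Tgfbr2 to Fmnl3 (0.82), Cnrip1 (0.795) and Calcrl (0.788). Pdgfa was closest to Trim47 (0.839), Hbegf (0.828) and Rab12 (0.817), Pdgfb to Clic4 (0.784), Cntln (0.762) and Map7d1 (0.762), and Tgfbr1 to Mitf (0.698), Fam234a (0.639) and B4galt6 (0.632). Tgfb3 had too few UMIs for this measure.

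In the tubule, many ligand levels were higher in AKI than in the control. A member was counted as past the control when both libraries of a group differed from it at least 2-fold in the same direction. In the 6 tubular classes 23 of 40 member and class pairs were higher in AKI and 0 were lower, against 10.3% of all genes higher by the same rule. Of the 22 pairs of a ligand and a tubular class among them (genes with too few UMIs in a class left out, such as Tgfb2 in principal cell-like cells), 17 were higher in AKI and 0 lower, and 11 were higher in CKD and 0 lower. In CKD 15 of the 40 were higher and 0 lower, against 10% of all genes. Over all 15 classes, 28 of 100 pairs were higher in AKI (7.17% of all genes) and 9 lower (8.39%), and in CKD 17 were higher (7.66%) and 11 lower (7.48%).

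In proximal tubule-like cells, Tgfb2 was 0.00753 in the control, 0.0716 and 0.0776 in AKI, and 0.0164 and 0.0163 in CKD, from 4, 42, 53, 18 and 6 UMIs. Both AKI libraries lay above all other libraries, and the control value was close to that of T-like cells of the same library (0.00685, 3 UMIs), which are not known to make Tgfb2. Tgfb2 was lower in CKD than in AKI (log2 fold change -2.12, SE 0.36, edgeR quasi-likelihood, Benjamini-Hochberg adjusted p = 0.0281, n = 2 and 2). The 5 proximal tubule-like clusters did not share this order. The cluster of 1333 cells gave 0.08 and 0.089 in AKI and 0.0148 and 0.0122 in CKD, with the control at 0.0185. Another went the other way, with 0 in both AKI libraries and 0.0238 and 0.0283 in CKD. A further cluster overlapped (0.06 and 0.0236 in AKI, 0.00983 and 0.0329 in CKD). The others gave 0.0672 and 0 in AKI against 0.0183 and 0 in CKD, and 0 in every library.

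Pdgfb in proximal tubule-like cells was 0.194 in the control, 0.996 and 0.771 in AKI, and 0.391 and 0.399 in CKD. AKI values were 5.13 and 3.98 times the control and CKD values 2.02 and 2.06 times, and in the class as a whole the groups did not overlap. They overlapped in a cluster with 0.749 and 0.352 in AKI and 0.401 and 0.453 in CKD. So they did in another with 0.739 and 0.278 in AKI and 0.329 and 0.106 in CKD. In the remaining clusters, that of 1333 cells among them (0.998 and 0.765 against 0.402 and 0.42), CKD lay below AKI. Pdgfb was lower in CKD than in AKI by edgeR's test (log2 fold change -1.11, SE 0.18, adjusted p = 0.0249). Pdgfa there was 0.122, 0.661, 0.571, 0.342 and 0.32, again with the control lowest and AKI highest. Its difference between CKD and AKI also passed (log2 fold change -0.84, SE 0.17, edgeR adjusted p = 0.0400). Pdgfa overlapped in 1 cluster (0.38 and 0.425 in AKI, 0.364 and 0.543 in CKD), and in the other clusters CKD lay below AKI. The mix of clusters differed, since 1 with 42 and 44 cells in AKI held 1072 in CKD 1, and its part was not tested. With these 3 ligands, 3 members were lower in CKD in proximal tubule-like cells, where 0.937% of all genes tested were lower.

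These tubular calls had limits. With doublets kept, Tgfb2 (adjusted p = 0.255), Pdgfb (0.165) and Pdgfa (0.246) no longer passed edgeR's test, and without AKI 1 they gave 0.0559, 0.0738 and 0.203. Without AKI 2, Tgfb2 (0.203) and Pdgfa (0.181) did not pass either. Markers of injured tubule in proximal tubule-like cells summed to 2.38, 11, 8.31, 5.15 and 3.60, and a list of dissociation and stress genes to 27.1, 96.9, 69.3, 62.1 and 53.6, so both moved with the ligands, and their part in the result was not tested.

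Tgfb1 in proximal tubule-like cells was 0.0301, 0.135, 0.129, 0.276 and 0.198, so that CKD, not AKI, was highest. The difference between CKD and AKI did not pass (log2 fold change 0.93, edgeR adjusted p = 0.0750). Within the cluster of 1333 cells Tgfb1 was 0.0231, 0.112, 0.115, 0.0886 and 0.114, so CKD was not highest there. A cluster with 42 and 44 cells in AKI and 1072 in CKD 1 held 0.237 and 0.247 in AKI and 0.598 and 0.538 in CKD. Another gave 0.16 and 0.118 in AKI and 0.246 and 0.329 in CKD. In the other clusters CKD did not lie above both AKI libraries. Tgfb1 was also above the control in thick ascending limb-like cells (0.0114, 0.125, 0.197, 0.197 and 0.246) and in distal convoluted-like cells (0.0201, 0.109, 0.211, 0.228 and 0.225). T cell markers in proximal tubule-like cells summed to 0.10, 1.36, 0.86, 6.06 and 2.71 and macrophage markers to 0.20, 1.71, 1.25, 4.08 and 1.56. Both immune sums were higher in every injured library than in the control, and their part in the Tgfb1 result was not tested.

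**Figure D3:**
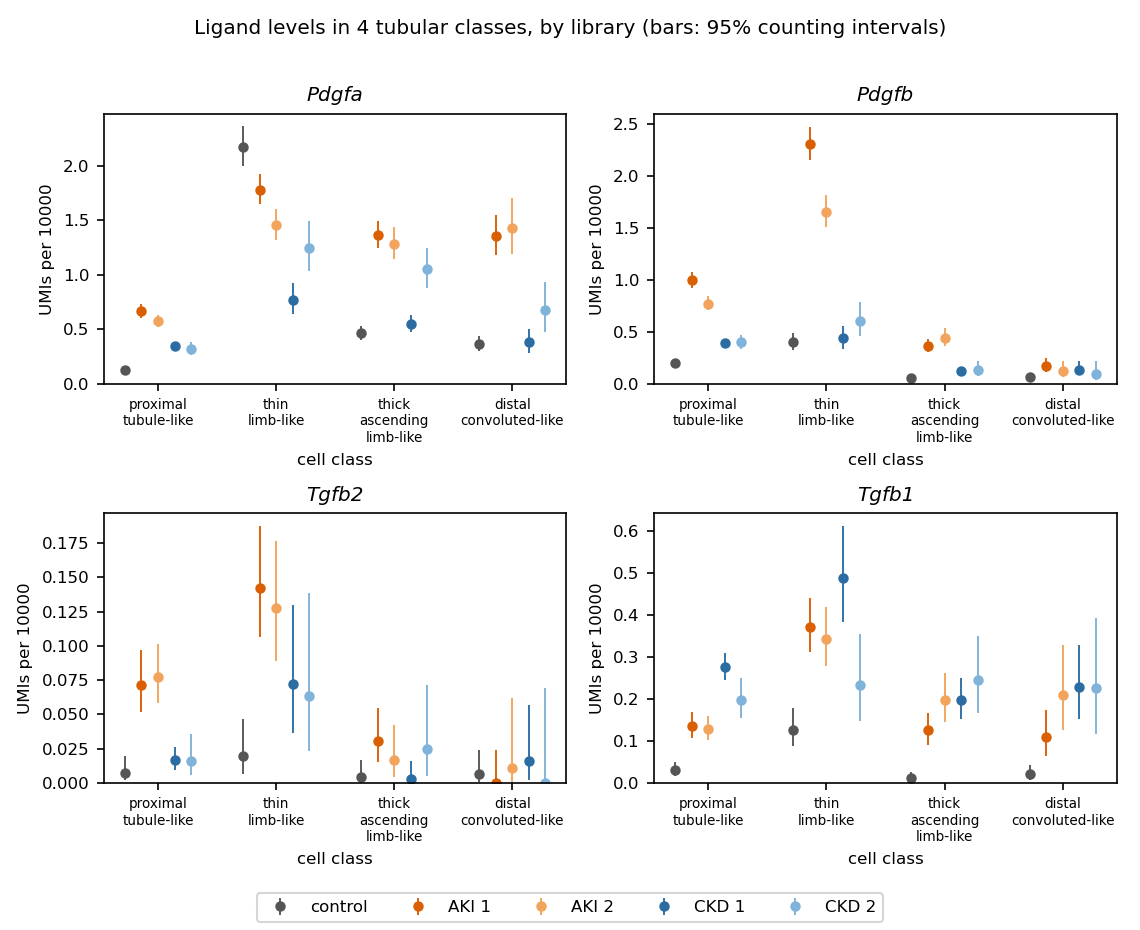
Each point is 1 library, with UMIs per 10000 on the vertical axis, tubular cell classes on the horizontal axis and the exact 95% Poisson interval as the bar, in 1 panel per ligand. Pdgfb in proximal tubule-like cells sits at 0.771 and 0.996 in AKI, above 0.391 and 0.399 in CKD and 0.194 in the control.

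The PDGF chains in other segments gave fewer calls and no common order. In distal convoluted-like cells Pdgfa was 0.365, 1.35, 1.43, 0.378 and 0.676, and both AKI libraries exceeded all others. It was the 1 member called there (log2 fold change -1.41, SE 0.26, edgeR adjusted p = 0.0257), where 0.293% of all genes were lower, and it was lost without AKI 1 (0.209), without AKI 2 (0.0892) and with DESeq2 (0.0552). In thick ascending limb-like cells Pdgfb was 0.0524, 0.362, 0.443, 0.122 and 0.131, and in thin limb-like cells it was 0.398, 2.31, 1.66, 0.435 and 0.606. The AKI libraries were highest in both segments, yet edgeR's adjusted p was 0.102 (log2 fold change -1.58) and 0.728 (log2 fold change -1.83), whereas DESeq2 called both.

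Pdgfa in thick ascending limb-like cells was 0.463, 1.37, 1.29, 0.544 and 1.05 (log2 fold change -0.73 between CKD and AKI, edgeR adjusted p = 0.398). In thin limb-like cells the control was the highest for Pdgfa, at 2.17 against 1.78, 1.45, 0.771 and 1.24. Tgfb2 in thin limb-like cells was 0.0199, 0.143, 0.127, 0.0725 and 0.0638, with both AKI libraries above both CKD libraries. The receptor Tgfbr2 also stood above the control in proximal tubule-like cells (0.128, 0.481, 0.606, 0.338 and 0.393), 3.75 and 4.73 times in AKI and 2.64 and 3.07 times in CKD.

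Ccn2 in principal cell-like cells was 0.198, 1.33, 1.07, 0.473 and 0.63, with AKI at 6.70 and 5.39 times the control. The lower level in CKD did not pass (log2 fold change -1.08, edgeR adjusted p = 0.120). In distal convoluted-like cells Ccn2 was 0.432, 0.744, 0.643, 0.268 and 0.338 (log2 fold change -1.16, edgeR adjusted p = 0.0575). The tubular levels of Ccn2 thus had AKI highest in these segments, while proximal tubule-like cells gave 0.0829, 0.213, 0.0922, 0.0868 and 0.038, where AKI 2 lay near the control.

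Of the collecting duct, intercalated-like cells, which secrete acid or base, held Tgfb2 at 0.0441 in the control and at 0.119, 0.169, 0.119 and 0.157 in the injured libraries, from 55, 49, 60, 33 and 35 UMIs. The control was lowest, and AKI and CKD overlapped. Pdgfa in the same cells was 0.343, 0.746, 0.631, 0.34 and 0.511, with AKI highest, CKD 1 near the control and CKD 2 between the control and AKI. Principal cell-like cells, which take up water and sodium, held Pdgfa at 0.335, 0.733, 0.555, 0.567 and 0.584 and Tgfbr2 at 0.723, 1.03, 1.08, 1.05 and 1.06, with the control lowest in both. Their Tgfb2 (0.0294, 0.0142, 0.00874, 0.0302 and 0.0183) rested on 2 to 21 UMIs and showed no order.

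Counted over all classes with a fold against the control, the members gave different counts. Of all gene and class pairs, 7.17% were higher and 8.39% lower in AKI, and 7.66% higher and 7.48% lower in CKD. Tgfbr2 was past 2-fold higher in AKI in 6 of 15 classes and lower in 0, Pdgfa higher in 6 of 14 and lower in 1, and Pdgfb higher in 5 of 13 and lower in 0. Tgfb1 was higher in 5 of 15 classes in AKI and in 4 in CKD, and lower in 0. Tgfbr1 was higher in 0 of 14 classes in either group, and lower in 1 in AKI and 2 in CKD, which is near the shares of all genes. Tgfb3 was lower in 3 of 4 classes in both groups. Between CKD and AKI, Pdgfa had a negative fold change in 12 of 12 classes, Ccn2 in 11 of 12 and Tgfbr1 in 11 of 13, whereas Tgfb1 had one in 7 of 15. The class medians of this fold change over all genes ran from -0.0203 (T-like) to 0.0213 (proximal tubule-like). These counts share the same libraries across classes and include values that did not pass the test.

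In macrophage-like cells, the receptor Tgfbr1 was 2.59 in the control and 0.568, 0.527, 0.55 and 0.693 in the injured libraries, which did not reach the control. The injured levels were 0.219, 0.203, 0.212 and 0.267 times the control, and CKD and AKI did not differ beyond their spread (log2 fold change 0.02, edgeR adjusted p = 0.966). Of the 3 macrophage-like clusters, 1 had 2.69 in the control against 0.493 to 0.767 and another 1.61 against 0.678 to 0.852, whereas the smallest, with 186 cells, held 0 control cells. Tgfb3 there was also highest in the control (0.0875 against 0.0155 to 0.0372), and Pdgfa was lowest in it (0.167 against 0.412 to 0.531). The dissociation and stress list summed to 326, 296, 274, 127 and 132 in these cells, and its part was not tested.

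Tgfbr2, the type II receptor, was 1.18, 1.31, 1.10, 0.611 and 0.619 in macrophage-like cells, so both CKD libraries lay below all others. It was called lower in CKD than in AKI (log2 fold change -1.14, SE 0.16, edgeR adjusted p = 0.0158), in a class where 5.8% of all genes were lower, and was lost without AKI 1 (0.0971). In Ccl6-led cells Tgfbr2 was 0.585, 0.987, 0.796, 0.344 and 0.36 and Tgfbr1 was 0.585, 0.762, 0.66, 0.426 and 0.416, with the control between AKI and CKD in both (6 UMIs each in the control). Both were called lower in CKD (Tgfbr2 log2 fold change -1.36, SE 0.18, edgeR adjusted p = 0.0017; Tgfbr1 -0.78, SE 0.16, adjusted p = 0.0152), where 6.08% of all genes were lower.
Both calls were lost without AKI 1 (Tgfbr2 adjusted p = 0.129, Tgfbr1 0.257), and Tgfbr1 also without AKI 2 (0.0730) and with DESeq2 (0.0714). Macrophage markers in Ccl6-led cells summed to 69.5, 136, 135, 46.1 and 42.9, highest in AKI and lowest in CKD like the receptors. Monocyte markers summed to 12.1, 3.51, 3.68, 11.7 and 21.8 and were instead lowest in AKI. The part of both marker sums was not tested.

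In T-like cells Tgfbr1 was 0.164, 0.119, 0.133, 0.082 and 0.084, with the control highest and CKD lowest. It was called lower in CKD (log2 fold change -0.60, SE 0.12, edgeR adjusted p = 0.0439), where 2.21% of all genes were lower, and was lost without AKI 1 (0.293) and without AKI 2 (0.362). Tgfbr2 in T-like cells was 0.552, 1.02, 0.918, 0.783 and 0.753, and its lower level in CKD did not pass (log2 fold change -0.34, edgeR adjusted p = 0.0682). Tgfb1 in the same cells was 0.815, 1.5, 1.60, 1.33 and 1.53, so the control was lowest and AKI and CKD overlapped. The dissociation and stress list summed to 130, 95.5, 102, 61.6 and 59.3 in T-like cells, and its part was not tested. T-like cells pool 11 clusters whose mix differed between the groups. A cluster with Mki67 among its leading genes held 235 and 223 cells in AKI and 1205 and 833 in CKD. A cluster led by Foxp3 held 538 and 703 cells in AKI and 208 and 339 in CKD. The part of this mix in the T-like results was not tested.

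**Figure D4:**
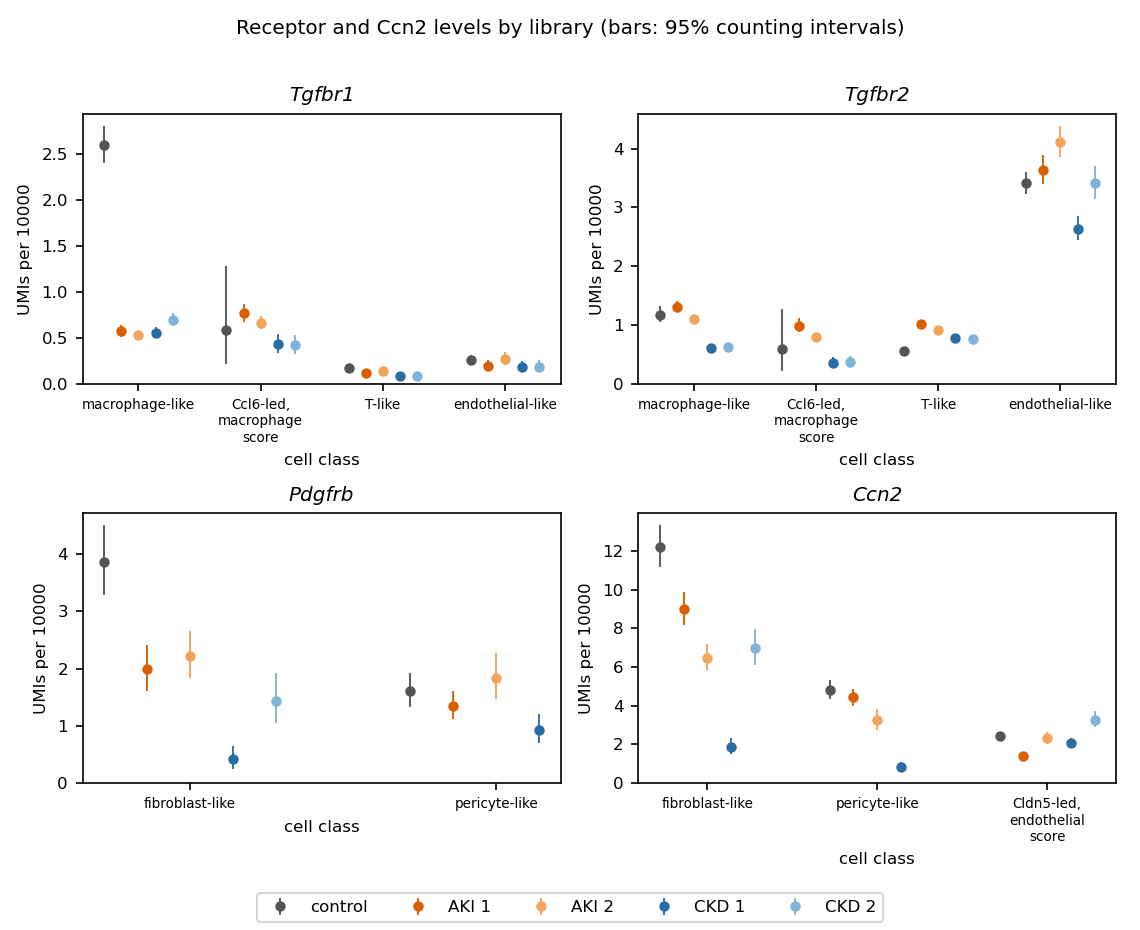
Each point is 1 library, with UMIs per 10000 on the vertical axis, cell classes on the horizontal axis and the exact 95% Poisson interval as the bar, in panels for receptors and Ccn2. Tgfbr1 in macrophage-like cells is 2.59 in the control and 0.527 to 0.693 in the other 4 libraries.

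Smaller lymphoid and myeloid classes held Tgfb1 with little order between the groups. NK-like cells gave 1.46, 1.64, 1.49, 1.92 and 1.91, where both CKD libraries were highest, and dendritic-like cells gave 1.28, 1.39, 1.34, 1.29 and 1.56, where the groups overlapped. Tgfbr2 in NK-like cells was 0.443 in the control and 0.912, 0.896, 1.04 and 0.67 in the injured libraries. B-like cells held Tgfb1 at 1.17, 1.65, 1.13, 1.68 and 1.37 and no Tgfb2 UMI in any library. Pdgfb in macrophage-like cells, a known source of this chain, was 1.34, 0.947, 0.667, 0.839 and 1.11, so the control was highest and AKI and CKD overlapped.

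In fibroblast-like cells, which carry both PDGF receptors, most members were lower in CKD 1 than in any other library. Pdgfra was 3.60, 1.69, 1.8, 0.391 and 1.88, Pdgfrb was 3.86, 1.99, 2.21, 0.414 and 1.43, and Ccn2 was 12.2, 9.01, 6.49, 1.88 and 7.0. The control was highest for all 3 genes and CKD 2 lay above CKD 1 in each. All 9 members tested had a negative fold change between CKD and AKI, but edgeR called 0 of them (5 at an unadjusted p under 0.05) and DESeq2 called 0. Of the 6084 genes tested in the class, edgeR also called 0, and 14.1% had an unadjusted p under 0.05. Without CKD 1, 7 of the 9 members had a negative fold change and edgeR called 0.
For Pdgfra the log2 fold change was -0.45 (edgeR adjusted p = 0.777), but 0.28 without CKD 1, and for Ccn2 it was -0.61 (0.643), but 0.026 without CKD 1. Without CKD 1, Pdgfrb moved from -1.0 to -0.38, Tgfbr2 from -1.09 to -0.68 and Tgfb1 from -0.91 to -0.78, while Tgfb2 moved from -1.67 to -2.05. The class held 52, 36, 37, 169 and 25 cells.

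Tgfb1, Tgfb2 and Tgfbr2 were instead highest in AKI in fibroblast-like cells. Tgfb1 was 1.12, 2.51, 2.18, 0.919 and 1.21, and Tgfbr2 was 1.19, 3.53, 2.79, 0.827 and 1.75, with both AKI libraries above all others. Tgfb2 was 0.381, 0.783, 0.431, 0.184 and 0.127 (log2 fold change -1.67, edgeR adjusted p = 0.282). Pericyte-like cells, with 18 cells in CKD 2 and so without a test, gave Pdgfrb at 1.61, 1.35, 1.84 and 0.919 and Ccn2 at 4.82, 4.43, 3.26 and 0.836 in the first 4 libraries, where CKD 1 was lowest in both.

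In endothelial-like cells Pdgfa was 0.435, 1.30, 1.12, 0.616 and 0.784, with the control lowest and AKI highest (log2 fold change -0.72, edgeR adjusted p = 0.486). Pdgfb was 2.21, 2.24, 2.29, 1.49 and 1.55, with CKD lowest (log2 fold change -0.49, edgeR adjusted p = 0.609). The larger endothelial-like cluster gave Pdgfb at 2.21, 2.26, 2.28, 1.95 and 1.53, and the other at 2.21, 2.02, 2.41, 0.713 and 1.72. In CKD 1 they held 333 and 397 cells, against 941 and 259 in the control, and the part of this mix was not tested. Of 6 members tested there, edgeR called 0, with 3 at an unadjusted p under 0.05, and DESeq2 called 0. Of all 10374 genes tested there edgeR called 0, and 7.59% had an unadjusted p under 0.05.

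**Figure D5:**
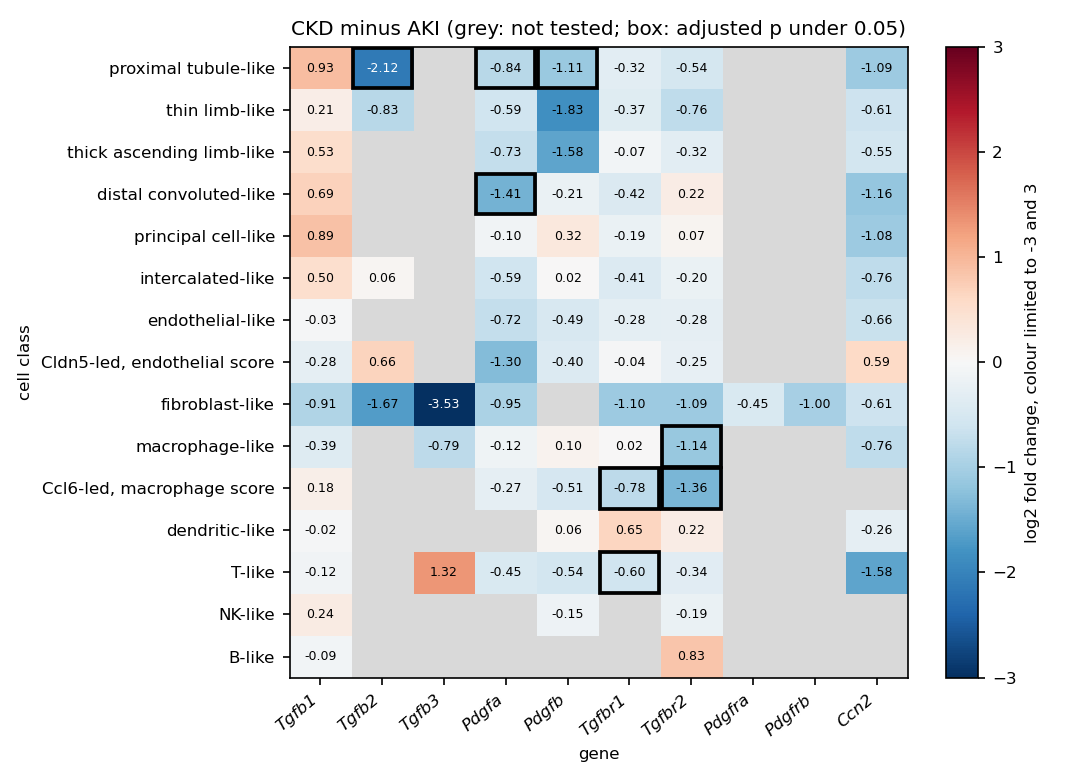
Colours give edgeR's log2 fold change, CKD minus AKI, for each gene and cell class, with grey for pairs that were not tested and a box around those with an adjusted p under 0.05. Blue and red stand for lower and higher in CKD, and the 8 boxed pairs are all lower.

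Over the 15 classes in which members could be tested, 90 member and class pairs were fitted, and 8 were lower and 0 higher in CKD. Of all genes, 1.15% were lower and 1.53% higher by the same test. Of the 90 pairs, 68 had a negative fold change, and their median log2 fold change was -0.38, whereas class medians over all genes lay between -0.02 and 0.03. No pair was called higher in CKD by edgeR. In either direction, 36 of the 90 had an unadjusted p under 0.05, as did 13.3% of all gene and class pairs. Changes were also compared between pairs of the classes T, proximal tubule, macrophage and endothelial, and 0 of 47 differences passed edgeR's test, with 17 at an unadjusted p under 0.05. Of all genes, 0.399% passed and 13.2% had such a p, and in 4 of the 6 pairs of classes 0 genes passed. The lowest adjusted p by edgeR belonged to Tgfbr2 in macrophage-like against T-like cells (difference of log2 fold changes -0.72, adjusted p = 0.0574), then to Tgfbr1 in the same pair of classes (0.69, adjusted p = 0.103) and to Pdgfb in macrophage-like against proximal tubule-like cells (1.18, adjusted p = 0.109).

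Further genes of the pathway gave calls in T-like, macrophage-like, Ccl6-led and proximal tubule-like cells and in no other class. These classes also had the largest shares of all genes called (9.1%, 9.82%, 11.4% and 2.82%), against at most 1.15% in any other class. The class pattern is thus not particular to the pathway. Over all lists of further pathway genes, 28 of 827 gene and class pairs were lower in CKD and 6 higher (4.11% called). Of all gene and class pairs, 1.15% were lower and 1.53% higher. SMADs and their regulators gave 12 lower and 0 higher of 206, and CCN and YAP or TEAD genes gave 6 lower of 115. Latency and activation genes gave 4 lower and 2 higher of 126, response genes 2 lower and 3 higher of 116, other PDGF genes 4 lower of 163, and co-receptors 1 higher of 101. A side list of dissociation and stress genes, which are not of the pathway, gave 25 lower of 192, so a lower level in CKD was not a feature of the pathway lists alone.

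In T-like cells, 5 of 15 SMAD genes tested were lower, where 2.21% of all genes were lower. The pseudoreceptor Bambi, which blocks TGF-beta signalling, was 0.172 and 0.168 in AKI and 0.0835 and 0.0762 in CKD (log2 fold change -1.10, edgeR adjusted p = 0.0132). The inhibitory SMAD gene Smad7, itself a known target, was 6.98 and 6.90 in AKI against 4.81 and 4.87 in CKD (log2 fold change -0.52, edgeR adjusted p = 0.0277). Pmepa1, another feedback inhibitor, was 1.67 and 1.58 against 1.03 and 0.988 (log2 fold change -0.69, edgeR adjusted p = 0.0166), and the repressors Tgif1 and Skil had log2 fold changes of -0.61 and -0.57. In every one of these 5 genes the AKI and CKD libraries did not overlap. The mix of T-like clusters differed between AKI and CKD, and its part was not tested.

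In macrophage-like cells, 4 of 14 SMAD genes tested were lower, where 5.8% of all genes were lower, with Tgif1 at log2 fold change -0.86, Skil -0.76, Pmepa1 -0.74 and Ski -0.73. Fibronectin (Fn1), a matrix gene known to respond to TGF-beta, was 0.582 and 1.07 in AKI and 0.147 and 0.191 in CKD (log2 fold change -2.45, edgeR adjusted p = 0.0117). Nrros, which holds latent TGF-beta on myeloid cells, was 0.994 and 0.945 against 0.43 and 0.55 (log2 fold change -1.15, edgeR adjusted p = 0.0169), and integrin Itgb5 had -0.91. Itga5, the fibronectin receptor chain, was higher, at 0.371 and 0.402 in CKD against 0.222 and 0.184 (log2 fold change 0.77, edgeR adjusted p = 0.0434).

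In Ccl6-led cells, Pmepa1 was 5.74 and 4.82 in AKI and 0.306 and 0.776 in CKD (log2 fold change -3.31, edgeR adjusted p = 0.000323), and Itgb5 was 3.09 and 3.00 against 0.503 and 0.627 (log2 fold change -2.46). Thrombospondin 1 (Thbs1), a known activator of latent TGF-beta, was higher in CKD at 1.95 and 4.06 against 0.523 and 0.942 (log2 fold change 1.99, edgeR adjusted p = 0.00737). In proximal tubule-like cells the YAP target Ankrd1 was 0.506 and 0.24 in AKI against 0.0548 and 0 in CKD (log2 fold change -3.28, edgeR adjusted p = 0.0397). Tgfbi, a TGF-beta induced matrix gene that macrophages also express, was 0.0443 and 0.0498 in AKI and 0.178 and 0.144 in CKD (log2 fold change 1.84, edgeR adjusted p = 0.0187).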

How the data were processed

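Kidney cells of 1 control, 2 AKI and 2 CKD libraries were counted with a 10x 3′ kit. Deposited files hold raw UMI counts for each barcode and gene from the authors' Cell Ranger runs. The submitters' processing notes name Cell Ranger 7.2.0, STAR and GRCm39, whereas the AKI and CKD file headers name another Cell Ranger version and the control's gene list names mm10. Genes were matched by identifier, and coordinates and sequences are from RefSeq on GRCm38.p6. The CellBender step of the study was not repeated, and every class can hold free RNA.

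A cell needed 200 genes and no more than 30% mitochondrial UMIs, and the highest doublet scores were removed at 0.8% per 1000 cells. Cells were embedded on 40 components of 3000 variable genes (members and pathway lists left out), with the Harmony correction for library, and clustered by Leiden at resolution 1.5. UMIs were summed per class and library. CKD was compared with AKI in R 4.3.3 by the quasi-likelihood test of edgeR 4.0.16 (TMM, filterByExpr, Benjamini-Hochberg adjustment within a class, threshold 0.05), with DESeq2 1.42.0 as alternative. An exact test of 2 against 2 libraries cannot go below p = 0.333, so none was used. Members were compared with the single control by fold alone, with a floor of 3 UMIs. Intervals are exact Poisson intervals at the 95% level and cover counting error only. Python 3.11.15 and scanpy 1.11.5 were used.

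The 10 members were always named. Of the pathway lists, at most 5 genes per class and list were eligible, by adjusted p under 0.05, separated groups and the largest fold change, and only some of these are named; likeness used log2(level + 0.05) and genes with at least 500 UMIs. The members and lists were chosen with earlier results of these data known. The fit was tested on simulated data: of genes changed 2-fold and 4-fold, 48% and 96% were recovered in macrophage-like cells (11076 genes), 47% and 97% in proximal tubule-like cells (11981 genes), and 6% and 59% in fibroblast-like cells (5609 genes). False calls numbered 6, 7 and 2. Changed genes were drawn only from those with higher counts, and all genes were given the same spread between libraries. The rates thus do not cover members with few UMIs. Alternatives changed the normalization, test, filters, clustering, fold limit and the libraries used. Merging of classes and the comparison of changes between classes were added after seeing the data.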

Additional observations from a re-analysis of the deposited data

Results flagged for a closer look

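In 11 of 100 member and class pairs both AKI libraries lay on one side of the control and both CKD libraries on the other, against 6.36% of all genes. The folds against the single control were not tested. Both use the same control, so their difference is that between CKD and AKI, and its test is given at the end of the paragraph. Levels are UMIs per 10000. In Ccl6-led cells the control level was 0.585 for Tgfbr1 and for Tgfbr2, between higher AKI and lower CKD levels. In fibroblast-like cells the same order held for Tgfb2 (control 0.381) and Tgfb3 (control 0.262), and in distal convoluted-like cells for Ccn2 (control 0.432). In endothelial-like cells it held for Tgfbr2 (control 3.41, with CKD 2 equal to it after rounding) and Pdgfb (control 2.21). Neither endothelial-like cluster kept this order for Tgfbr2. The larger cluster gave 3.58 in the control and 3.63 and 3.43 in CKD, and the other 1.81 in the control and 0.951 and 3.24 in CKD. In intercalated-like cells, the acid-base handling cells of the collecting duct, Tgfbr1 was 0.52 and 0.566 in AKI, 0.485 in the control and 0.35 and 0.399 in CKD, and Ccn2 was 0.331 and 0.558, 0.305, and 0.184 and 0.3. In Cldn5-led cells Pdgfa was 1.35 and 0.738 in AKI, 0.545 in the control and 0.474 and 0.327 in CKD. In B-like cells the order was the reverse for Tgfbr2, with 0.466 and 0.399 in AKI, 0.698 in the control and 0.962 and 0.82 in CKD. Of these pairs, edgeR's test of CKD against AKI called the 2 in Ccl6-led cells.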

How the results depend on the processing

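Leaving out 1 library gave 0 to 35 called members against 8 with all 4, with 0 without AKI 1, 3 without AKI 2, 17 without CKD 1 and 35 without CKD 2. For pathway genes (34 called) the same range was 5 to 185. Without the filter on low counts 20 members and 103 pathway pairs were called, and adjustment over all classes together gave 21 pathway pairs. A replicate block gave 12 members and 59 pathway pairs; same-numbered libraries correlated between -0.36 and 0.27 and above 0.1 in 9 of 16 classes, and with 2 pairs the labels' numbers are not taken as a pairing. For the fits with changed settings, shares of all genes called are not given here, so their counts are not a result about the members. Against the control, a limit of 3-fold left 20 of 100 member pairs in AKI (37 at 2-fold) and 11 in CKD (28). Of all 159872 gene and class pairs, it left 12123 in AKI (24884 at 2-fold) and 11504 in CKD (24210). A limit of 1.5-fold gave 44 member pairs in CKD, and 45317 of all pairs. In fibroblast-like cells, leaving out 1 library moved the log2 fold change of Ccn2 between -1.74 and 0.026 and that of Pdgfra between -1.85 and 0.28, both turning positive without CKD 1. Of 108 refits of the 8 called pairs, 86 stayed past the threshold, 22 did not and 0 changed direction. With adjustment over all classes Pdgfa in proximal tubule-like cells (edgeR adjusted p = 0.0602) and Tgfbr1 in Ccl6-led (0.0616) and T-like cells (0.114) did not pass, nor did Pdgfa in proximal tubule-like cells at resolution 1.0 (0.0639). The highest class was the same for 7 to 9 of the 10 members under other clusterings and filters. Depth limits Tgfb3, Tgfb2 in many classes, fibroblast-like cells among them (16, 39, 23, 8 and 4 UMIs), and every class with few cells.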
